A study of Homo sapiens with 6 samples.

Results

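The genes described here are 40 genes of protein folding and disposal in the endoplasmic reticulum (ER), chosen by name. Earlier results of these data were known when the genes were chosen. A gene was measured where the array had at least 1 probe set annotated to that gene symbol and no other. This held for 38 of the 40 genes, with 98 probe sets, out of 19775 genes measured in all. PDIA5 and SYVN1 were not measured, since the 1 probe set of each carries a second symbol. ERO1L, ERO1LB and SELS were found under their current names ERO1A, ERO1B and SELENOS. Where a gene had several probe sets, their average was used.

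The cells were MDA-MB-231, an established human breast cancer line, and the arrays were Affymetrix expression arrays of total RNA. In the control group, 3 arrays came from cells that had received a control vector. In the other group, 3 arrays came from cells that had received a plasmid for HS3ST2, an enzyme that adds 3-O-sulfate groups to heparan sulfate. The sources used here do not name the vector's promoter, the time between transfection and RNA collection, or any selection or cloning of the cells. The replicates are said to be independent, but not whether each was a separate transfection, so p-values measure the spread between these arrays, which may be technical.

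Proteins that enter the secretory pathway pass through the Sec61 channel into the ER. There, chaperones such as BiP hold them, disulfide isomerases form and reshuffle their cysteine bonds, and calnexin and calreticulin bind their glycans. Chains that fail to fold are led by lectins of the EDEM family to a membrane complex around SEL1L and the ubiquitin ligase SYVN1, pulled back into the cytosol and degraded, a route called ER-associated degradation. When unfolded chains accumulate, the sensors IRE1 (gene ERN1), PERK (gene EIF2AK3) and ATF6 start the unfolded protein response, in which spliced XBP1 and cleaved ATF6 raise the transcription of many of the genes above.

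Every value is a deposited value, read as log2, relative to the probe set's own median over the 6 arrays. Differences between arrays can therefore be read, but the level of one gene cannot be set against that of another, and genes near background cannot be told from the rest. For the same reason the cell type could not be checked against its defining markers. No source gives the log base, and 2 was assumed. Over the 38 ER genes, 2 arrays of one group had a median absolute difference of 0.0465 to 0.0833 log2, and 2 arrays of different groups one of 0.147 to 0.196. The ranges over all genes were 0.0788 to 0.0958 and 0.141 to 0.167.

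The arrays labelled with HS3ST2 did not show a detectable rise of HS3ST2 itself. Its single probe set read -0.22, 0.17 and -0.11 in controls against 0.16, 0.04 and -0.04, a difference of 0.11 ± 0.10 (SE, n = 3 per group; limma adjusted p = 0.523). Whether the plasmid's transcript holds the stretch this probe set reads is not known here, so it checks the labels in neither direction. The arrays are called HS3ST2-labelled below, and every direction rests on the labels. The ribosomal RNA control probe sets differed between the groups, with a mean of 0.31 ± 0.38 (SD, n = 3) against -0.18 ± 0.12 in controls (two-sided exact permutation p = 0.1, below which 3 against 3 cannot go), and HS3ST2 replicate 3 was highest at 0.74. The 3′ minus 5′ difference of the ACTB control probe sets averaged 0.09 ± 0.13 against -0.06 ± 0.15 (two-sided exact permutation p = 0.2), with the lowest value, -0.21, in control replicate 1. That of the GAPDH control probe sets averaged 0.017 ± 0.021 against -0.007 ± 0.018 (two-sided exact permutation p = 0.3). Of cell type markers, 3 of 7 leukocyte, 0 of 6 fibroblast and 1 of 7 luminal epithelial genes were called by limma. Over all genes 24.5% were called. The leukocyte calls were split, with ITGB2 (1.11 log2) and CORO1A (0.37) higher and LAPTM5 (-0.59) lower, and the luminal call was KRT18 (0.26). At an unadjusted limma p under 0.05 the fibroblast count was also 0. How high these markers stood cannot be read from centred values. The part of any of these in the results below was not tested, except where values without HS3ST2 replicate 3 are given.

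ER genes moved in both directions. By limma at a Benjamini-Hochberg adjusted p under 0.05 over all genes, 9 of the 38 were higher in the HS3ST2-labelled arrays, 7 were lower and 22 were not called. Over all 19775 genes, 24.5% were called, 11.5% higher and 13% lower, against 42.1% of the ER genes. The share over all genes includes any genes near background, which could not be set aside. The part of this, or of the number of probe sets per gene, in the gap was not tested. The median difference was 0.04 log2 over the ER genes and 0.01 over all genes, and the median size of a difference was 0.16 and 0.11. The genes called higher were CRELD2, EDEM1, DNAJB9, HERPUD1, DNAJC3, PDIA3, PPIB, SEC61A1 and HSPA5. Those called lower were EDEM3, ERO1A, ERN1, DNAJB11, ATF6, SSR1 and DNAJC10. In all 16 the values of the 2 groups did not overlap, and 7 more genes that were not called had non-overlapping groups too. In total 15 ER genes lay wholly higher and 8 wholly lower. Of all genes 40.4% had non-overlapping groups, 19.5% higher and 20.9% lower. Only CRELD2 and EDEM3 differed by at least 0.5 log2.

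Of the 16 calls, 10 held when any 1 array was left out, namely CRELD2, EDEM1, DNAJB9, HERPUD1, DNAJC3 and PDIA3 higher, and EDEM3, ERO1A, ERN1 and DNAJB11 lower. The number called lower fell to 4 without HS3ST2 replicate 2 and without either of control replicates 1 and 3. The number called higher was 6 to 8 with 1 array left out. Calls over all 19775 genes also fell, from 4845 on all arrays to between 3777 and 4020 with 1 array left out. Without HS3ST2 replicate 3, whose ribosomal RNA signal was highest, 6 ER genes were called higher and 5 lower.

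**Figure D1:**
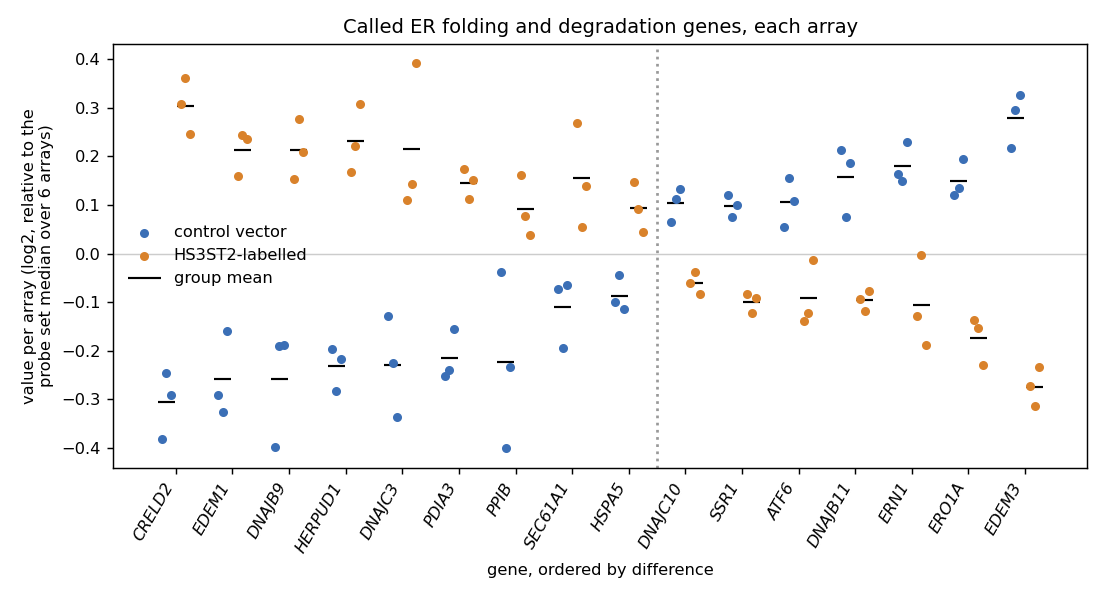
Values of the 16 called ER genes in each array, on the vertical axis in log2 relative to the probe set median over the 6 arrays, with genes ordered by difference along the horizontal axis. Blue points are the 3 control vector arrays, orange points the 3 HS3ST2-labelled arrays and black bars group means; the dotted line separates the 9 genes called higher from the 7 called lower, and in each gene the groups do not overlap.

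Among the chaperones and their cofactors, the largest rises were those of CRELD2 and the J-domain genes DNAJB9 and DNAJC3. Of 11 genes measured, 4 were called higher and 1 lower. CRELD2, a secreted ER stress-inducible protein, read -0.38, -0.25 and -0.29 in controls and 0.31, 0.36 and 0.25 in HS3ST2-labelled arrays. That is a difference of 0.61 ± 0.06 log2 (SE, n = 3 per group), or 1.53-fold, with a limma adjusted p of 0.000287. It was the largest rise among the 38 genes. All HS3ST2-labelled arrays lay above all controls, and the gap between the groups was wider than the spread within either.

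DNAJB9, a J-domain co-chaperone of BiP, read -0.40, -0.19 and -0.19 in controls and 0.15, 0.28 and 0.21 in HS3ST2-labelled arrays, a rise of 0.47 ± 0.07 log2 (SE; limma adjusted p = 0.0025). Control replicate 1 was its lowest array, and without it the rise was the smallest of the leave-one-out values, 0.40. DNAJC3, another J-domain partner of BiP that is also known as an inhibitor of PERK, read -0.13, -0.23 and -0.34 against 0.11, 0.14 and 0.39, a rise of 0.44 ± 0.09 (limma adjusted p = 0.00836). Its highest array was HS3ST2 replicate 3, without which the rise was 0.36. DNAJB11, another J-domain gene, moved the other way. This protein, which helps BiP bind unfolded chains, read 0.21, 0.08 and 0.19 in controls and -0.09, -0.12 and -0.08 in HS3ST2-labelled arrays, a difference of -0.25 ± 0.06 (limma adjusted p = 0.013).

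HSPA5, which encodes BiP itself, differed little. It read -0.10, -0.04 and -0.11 in controls and 0.15, 0.09 and 0.04 in HS3ST2-labelled arrays, a rise of 0.18 ± 0.05 log2 (SE), or 1.13-fold, that was just inside the threshold (limma adjusted p = 0.0432). The call was lost when any 1 of the 6 arrays was left out, where the rise was 0.15 to 0.21 and the adjusted p 0.0602 to 0.128. Of the 2 HSPA5 probe sets, 1 was called higher at 0.25, and the other gave 0.11 with overlapping groups and no call. HSP90B1, the ER form of HSP90 also called GRP94, was not called. Its values were -0.43, 0.06 and 0.05 in controls and -0.13, -0.04 and 0.08 in HS3ST2-labelled arrays, so the groups overlapped, and the difference was 0.08 ± 0.13 with a 95% interval from -0.23 to 0.38. The low control value belongs to control replicate 1, without which the difference was -0.085. HSP90B1 rests on 2 probe sets that both end in _x_at, and 2 more with a second symbol were not used.

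Of the other chaperones, the lectins CALR (0.16, interval -0.09 to 0.41) and CANX (0.04, interval -0.09 to 0.17), the large BiP-family chaperone HYOU1 (0.15, interval 0.03 to 0.27, adjusted p = 0.0674 by limma), the BiP cofactor MANF (-0.05, interval -0.18 to 0.08) and SDF2L1, part of the DNAJB11 complex (-0.12, interval -0.24 to 0.01), were not called. HYOU1 lay wholly higher and SDF2L1 wholly lower in the HS3ST2-labelled arrays, with both differences under 0.2. In CALR, control replicate 1 stood apart at -0.37 while the other 5 arrays were between -0.03 and 0.11, and without it the difference was 0.03.

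**Figure D2:**
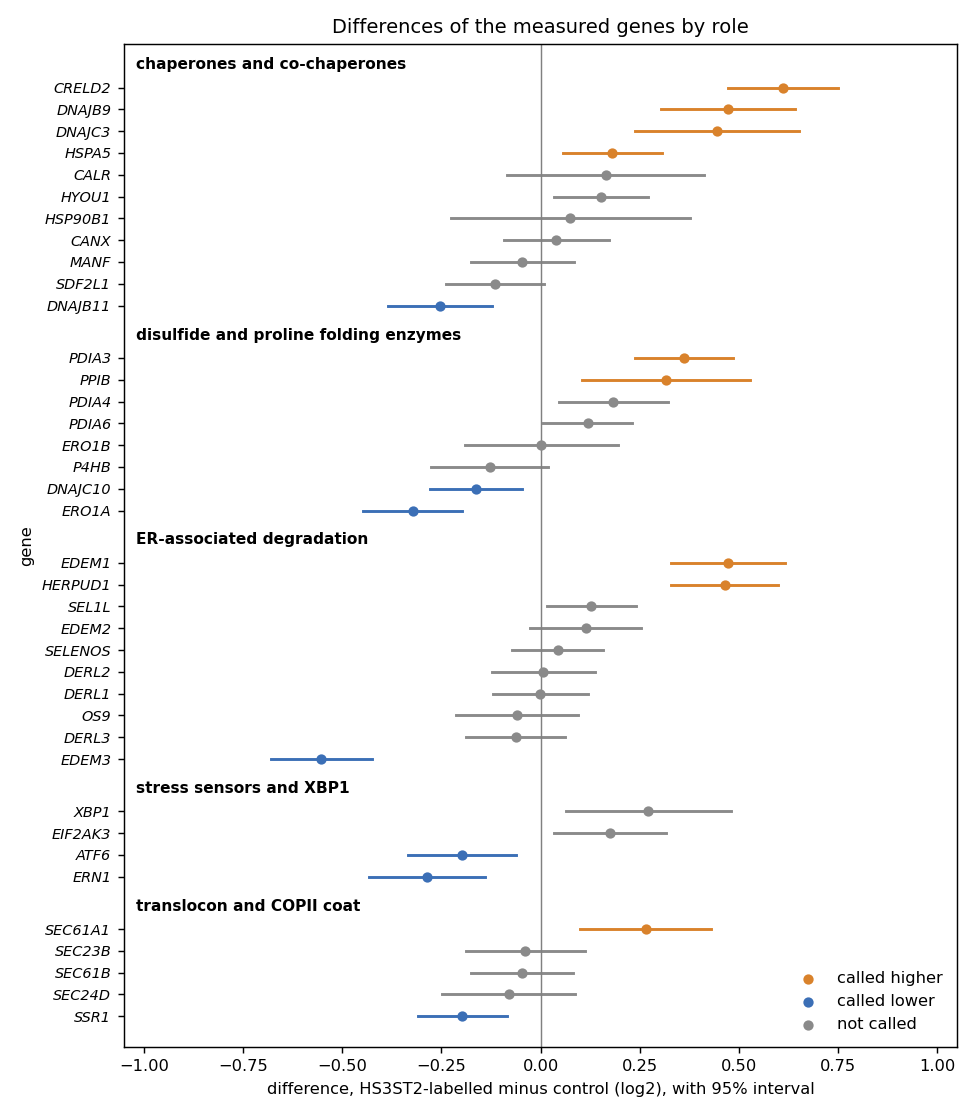
Differences of the 38 measured ER genes, HS3ST2-labelled minus control, in log2 on the horizontal axis, grouped by role. Points are limma estimates from 3 arrays per group and bars their 95% intervals; orange marks genes called higher, blue genes called lower and grey genes not called. Each group of genes except the stress sensors holds genes called in both directions.

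Enzymes that make and rearrange disulfide bonds, or turn prolines, also split. Of 8 genes measured, PDIA3 and PPIB were called higher and ERO1A and DNAJC10 lower. PDIA3, the isomerase that works with calnexin and calreticulin on glycoproteins, read -0.25, -0.24 and -0.15 in controls and 0.17, 0.11 and 0.15 in HS3ST2-labelled arrays, a rise of 0.36 ± 0.05 log2 (SE; limma adjusted p = 0.002). Each of its 3 probe sets was called higher on its own, at 0.31, 0.37 and 0.40. ERO1A, the oxidase that passes oxidising equivalents to the isomerases and is also known as a hypoxia-inducible gene, read 0.12, 0.14 and 0.19 in controls and -0.14, -0.15 and -0.23 in HS3ST2-labelled arrays, a difference of -0.32 ± 0.05 (limma adjusted p = 0.00346). Its paralogue ERO1B, by contrast, showed 0.00 ± 0.08 with overlapping groups (interval -0.19 to 0.19).

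PPIB, the ER cyclophilin that turns prolines in collagen and other secreted proteins, rose by 0.32 ± 0.09 log2 (SE; limma adjusted p = 0.0398). Its control arrays were spread out, at -0.04, -0.40 and -0.23, against 0.16, 0.08 and 0.04 in the HS3ST2-labelled arrays. The call was kept without control replicate 1 and lost without any 1 of the other 5 arrays, with a rise of 0.23 without control replicate 2, 0.31 without control replicate 3, 0.28, 0.32 and 0.34 without HS3ST2 replicates 1, 2 and 3, and an adjusted p of up to 0.116. DNAJC10, a J-domain reductase that opens disulfides ahead of degradation, read 0.07, 0.11 and 0.13 against -0.06, -0.04 and -0.08, a difference of -0.16 ± 0.05 (limma adjusted p = 0.0482). That call was lost when any 1 array was left out, where the difference was -0.18 to -0.15. The isomerases PDIA4 (0.18, interval 0.05 to 0.32), PDIA6 (0.12, interval 0.01 to 0.23) and P4HB (-0.13, interval -0.28 to 0.02) were not called, although PDIA4 passed without control replicate 3 (0.22, limma adjusted p = 0.0498).

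In ER-associated degradation the 3 EDEM genes went apart. These encode related lectins that trim mannose from misfolded glycoproteins or deliver them for disposal. EDEM1 read -0.29, -0.33 and -0.16 in controls and 0.16, 0.24 and 0.23 in HS3ST2-labelled arrays, a rise of 0.47 ± 0.06 log2 (SE), or 1.39-fold, with a limma adjusted p of 0.00116. EDEM3 read 0.22, 0.30 and 0.33 in controls and -0.27, -0.31 and -0.23 in HS3ST2-labelled arrays. Its difference of -0.55 ± 0.06, a 1.47-fold fall (limma adjusted p = 0.000303), was the largest fall among the 38 genes. EDEM2 lay between them at 0.11 ± 0.06, with overlapping groups (interval -0.03 to 0.25). EDEM1 has 1 probe set, and the 3 probe sets of EDEM3 were each called lower, at -0.71, -0.51 and -0.44, all with the endings _x_at or _s_at.

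HERPUD1, a membrane protein that assembles the degradation complex, was called on average but its probe sets did not go together. Its gene values were -0.20, -0.28 and -0.22 in controls and 0.17, 0.22 and 0.31 in HS3ST2-labelled arrays, a rise of 0.46 ± 0.06 log2 (SE; limma adjusted p = 0.000904). Of its 2 probe sets, the one ending in _s_at rose by 0.85 ± 0.07 with tight groups, at -0.42, -0.39 and -0.41 against 0.52, 0.39 and 0.42 (limma adjusted p = 0.000212 over all probe sets). The other gave 0.08 ± 0.11 with overlapping groups. The remaining 7 genes of this route were not called. They are SEL1L, the adaptor of the ubiquitin ligase (0.13, interval 0.01 to 0.24), the derlins DERL1 (0.00), DERL2 (0.01) and DERL3 (-0.06), which form part of the membrane channel, the lectin OS9 (-0.06), the derlin-binding selenoprotein SELENOS (0.04) and EDEM2. Probe sets ran from -0.07 to 0.42 in SEL1L, -0.19 to 0.08 in DERL1, -0.13 to 0.15 in DERL2 and -0.21 to 0.07 in DERL3. None of these probe sets was called.

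The stress sensors and XBP1 were measured as transcripts only, and these arrays do not report the splicing of XBP1 or the cleavage of ATF6. ERN1, which encodes the sensor IRE1 that splices XBP1, read 0.16, 0.15 and 0.23 in controls and -0.13, 0.00 and -0.19 in HS3ST2-labelled arrays. It fell by 0.29 on the log2 scale, with an SE of 0.06 (limma adjusted p = 0.0128), although none of its 3 probe sets passed alone (-0.50, -0.25 and -0.11). ATF6 read 0.06, 0.16 and 0.11 against -0.14, -0.12 and -0.01, a difference of -0.20 ± 0.06 (limma adjusted p = 0.0426). Its call was kept without HS3ST2 replicate 3 and lost without any 1 of the other arrays, where the difference was -0.17 to -0.22. Of the 4 ATF6 probe sets, 2 were called lower, at -0.36 and -0.26, and those at -0.22 and 0.05 were not called.

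EIF2AK3, which encodes PERK, the kinase that slows translation, was not called. Its values were -0.15, -0.05 and -0.02 in controls and 0.14, 0.14 and 0.03 in HS3ST2-labelled arrays, a difference of 0.18 ± 0.06 log2 (SE; interval 0.03 to 0.32, limma adjusted p = 0.0731). XBP1 was not called either, at 0.27 ± 0.09 (interval 0.06 to 0.48, limma adjusted p = 0.0635). Its gene values were 0.04, -0.18 and -0.31 in controls and 0.05, 0.18 and 0.14 in HS3ST2-labelled arrays, so the groups were nearly touching. The 2 XBP1 probe sets differed. One read -0.25, -0.17 and -0.26 against 0.20, 0.21 and 0.17 and was called higher at 0.42 ± 0.06 (limma adjusted p = 0.00369 over all probe sets). The other read 0.32, -0.18 and -0.36 against -0.11, 0.15 and 0.11, with overlapping groups (0.12 ± 0.17). Without control replicate 1, the array where the second probe set was highest, XBP1 was called at 0.37 (limma adjusted p = 0.0128).

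At the entry and exit of the ER, SEC61A1 and SSR1 were called in opposite directions. SEC61A1, the pore subunit of the Sec61 channel, read -0.07, -0.19 and -0.06 in controls and 0.27, 0.05 and 0.14 in HS3ST2-labelled arrays, a rise of 0.27 ± 0.07 log2 (SE; limma adjusted p = 0.0294). It was called without HS3ST2 replicate 2 and not without any 1 of the other arrays, where the rise was 0.21 to 0.29. SSR1, a subunit of the TRAP complex beside the channel, read 0.12, 0.08 and 0.10 against -0.08, -0.12 and -0.09, a difference of -0.20 ± 0.05 (limma adjusted p = 0.0209). Its call was lost without control replicate 1 (-0.19), control replicate 3 (-0.20), HS3ST2 replicate 2 (-0.19) or HS3ST2 replicate 3 (-0.20). Of its 6 probe sets, 3 were called lower, all ending in _s_at, and the 2 with other endings gave -0.10 and 0.11. SEC61B, the small channel subunit, gave -0.05, and the COPII coat genes SEC23B and SEC24D gave -0.04 and -0.08, none of them called.

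Agreement between probe sets differed among the genes, and 30 of the 38 had more than 1 probe set. Of the 98 probe sets, 14 were called higher and 15 lower, where 16.9% of all 54613 probe sets were called, 7.9% higher and 8.98% lower. In no ER gene were probe sets called both ways. SEC24D had 1 probe set called higher at 0.29 and 2 at -0.28 and -0.25 that were not called. DNAJC10 had 3 called lower, at -0.32, -0.26 and -0.25, and 2 not called at -0.20 and 0.21, the last with overlapping groups (limma adjusted p = 0.158 over all probe sets). Probe sets ending in _s_at or _x_at can match several transcripts or genes. Without them, 8 ER genes had no probe set left, and of the 30 that remained 7 were called higher and 2 lower. Over all genes, 3328 of the 17098 that remained were called, against 4845 of 19775 with every probe set. EDEM3 and SEC61A1 were among the 8, and HERPUD1 (0.08), ERO1A (-0.10), SSR1 (0.00), HSPA5 (0.18), ATF6 (-0.20) and DNAJC10 (-0.12) were then not called, while PDIA6 was called higher (0.21, limma adjusted p = 0.0454).

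**Figure D3:**
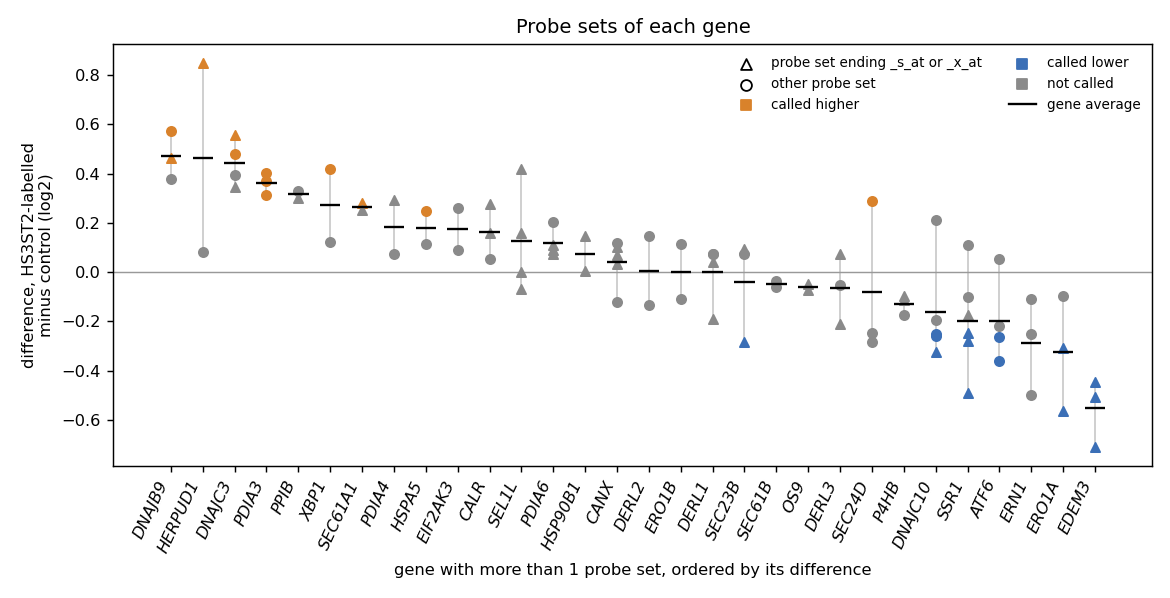
Differences of single probe sets, HS3ST2-labelled minus control, in log2 on the vertical axis, for the 30 ER genes with more than 1 probe set, ordered by the gene's difference. Triangles are probe sets ending in _s_at or _x_at, circles the others, colours mark calls over all probe sets and black bars the gene average. HERPUD1 spans from 0.08 to 0.85, whereas the 3 probe sets of PDIA3 lie between 0.31 and 0.40.

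Many promoters of these genes are known to hold ER stress elements, to which ATF6 and XBP1 bind, so the elements were located in the RefSeq promoter windows (build GRCh38.p14, 250 bases before to 50 after each annotated start). A window was found for 36 of the 40 genes. The element ERSE was searched as CCAAT and CCACG with 9 bases of any kind between them, ERSE-II as ATTGG and CCACG with 1 base between them, and the unfolded protein response element as TGACGTGG, all as exact matches on both strands. ERSE was found in 8 of the 36 genes (22.2%), and in 25 of 27305 genes with a window (0.0916%). ERSE-II was found in 3 (8.33%), against 19 of all genes (0.0696%). TGACGTGG was found in 2, DNAJC10 and HYOU1, against 0.927% of all genes. A match describes the letters and is not a site shown to be used.

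The sites are shown because they sit in front of genes called higher and of genes not called, with the same fixed letters. Among these genes, only SDF2L1 had a negative difference. Fixed letters of the motif are in capitals, and each site is written in the direction of the motif:
CRELD2 ERSE: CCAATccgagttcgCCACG
HSPA5 ERSE: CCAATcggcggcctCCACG
XBP1 ERSE: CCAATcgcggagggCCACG
CALR ERSE: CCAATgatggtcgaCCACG
PDIA6 ERSE: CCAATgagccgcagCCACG
HSP90B1 ERSE, nearer the start: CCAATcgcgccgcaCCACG
HSP90B1 ERSE, farther from the start: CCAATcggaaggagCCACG
CANX ERSE: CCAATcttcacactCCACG
ERO1B ERSE: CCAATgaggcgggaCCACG
HERPUD1 ERSE-II: ATTGGgCCACG
HYOU1 ERSE-II, both sites: ATTGGaCCACG
SDF2L1 ERSE-II: ATTGGtCCACG

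Of the 8 genes with an ERSE, CRELD2 and HSPA5 were called higher, none was called lower and 6 were not called, with a median difference of 0.14 log2. The 26 measured genes with a window and no ERSE gave 6 called higher and 7 called lower, with a median of -0.02. Of the genes with ERSE-II, HERPUD1 was called higher, and HYOU1 and SDF2L1 were not called. Thus all 7 genes called lower lacked exact matches of both elements in these windows. So did DNAJB9, DNAJC3, EDEM1, PPIB and SEC61A1, which were called higher. Of the 34 measured genes with a window, 26 lacked ERSE and 31 lacked ERSE-II, so lacking them was common whatever the call. Sites with a changed letter were not searched for. PDIA3 had no window. The short motif CCACG alone, which is also part of both ERSE motifs and, on the other strand, of TGACGTGG, was found in 28 of the 36 genes (77.8%) and in 42.1% of all genes. It was present in all 8 genes called higher that had a window and in 3 of the 7 called lower. No test was made of these counts, since the genes were chosen as ones that this response is known to act on.

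**Figure D4:**
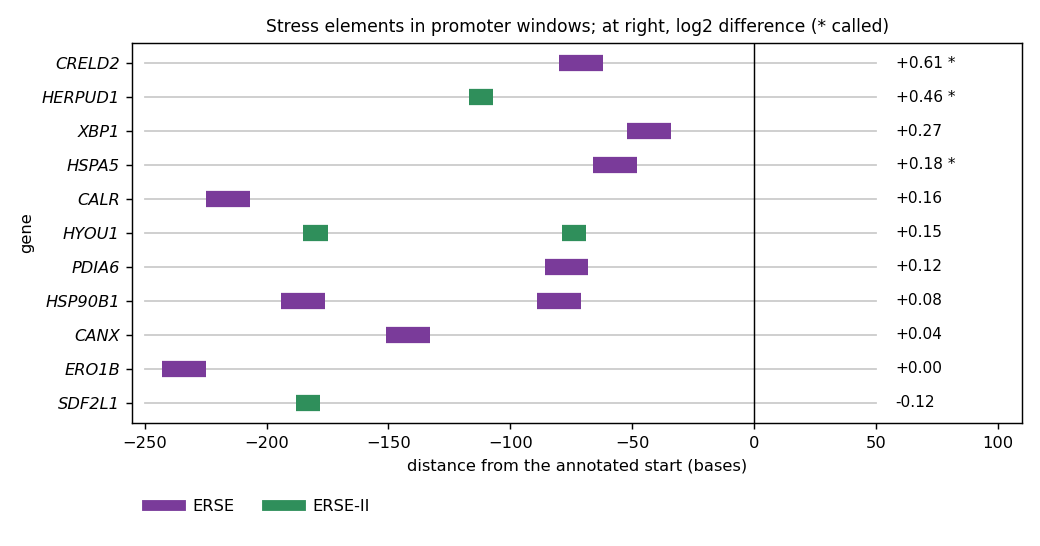
Position of exact ERSE (purple) and ERSE-II (green) matches relative to the annotated transcription start, in bases on the horizontal axis, for the 11 ER genes with at least 1 match; the first listed window is drawn for genes with several. Numbers at the right are log2 differences, HS3ST2-labelled minus control, and an asterisk marks a call; genes with a match run from 0.61 in CRELD2 to -0.12 in SDF2L1.

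The stretch before the start is shown for 3 genes called higher and, for comparison, for HSP90B1, which holds 2 ERSE copies and was not called. The sequences run 5′ to 3′ on the strand of the gene, end at the base before the annotated start and have the fixed motif letters in capitals. They lie at chr22:49918514-49918633 on the plus strand (CRELD2), chr16:56932022-56932141 on the plus strand (HERPUD1), chr9:125241344-125241463 on the minus strand (HSPA5) and chr12:103930210-103930409 on the plus strand (HSP90B1), all in GRCh38.p14. In CRELD2 and in the nearer HSP90B1 copy the element lies on the opposite strand and reads CGTGG first:
CRELD2: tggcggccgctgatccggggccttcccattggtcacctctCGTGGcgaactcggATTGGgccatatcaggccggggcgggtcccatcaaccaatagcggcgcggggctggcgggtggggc
HERPUD1: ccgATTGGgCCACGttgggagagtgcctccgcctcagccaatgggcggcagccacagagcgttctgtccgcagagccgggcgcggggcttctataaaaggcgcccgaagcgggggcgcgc
HSPA5: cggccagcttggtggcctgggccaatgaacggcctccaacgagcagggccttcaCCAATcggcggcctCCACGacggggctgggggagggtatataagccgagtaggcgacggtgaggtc
HSP90B1: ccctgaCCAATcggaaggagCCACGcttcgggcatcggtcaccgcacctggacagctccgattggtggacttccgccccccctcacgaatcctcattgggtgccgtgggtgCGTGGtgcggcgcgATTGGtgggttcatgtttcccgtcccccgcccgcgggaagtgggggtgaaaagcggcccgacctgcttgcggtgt

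The rest of the ER machinery was taken from 6 further lists of 136 genes, of which 129 were measured. Of these 21 were called higher and 21 lower, which is 32.6% against 24.5% of all genes. The share over all genes again includes any genes near background. With 1 array left out 15 to 19 were higher and 14 to 19 lower. Among 25 other folding enzymes, 6 were higher and 4 lower (40% called). With 1 array left out 4 to 6 were higher and 2 to 5 lower, the 2 without HS3ST2 replicate 1 or HS3ST2 replicate 3. QSOX1, a secreted disulfide-forming oxidase, rose by 0.69 ± 0.06 log2 (SE) and FKBP10, a collagen prolyl isomerase, by 0.69 ± 0.07, while the J-domain gene DNAJC1 was at -0.41 ± 0.05. Among 18 genes of glycan addition and trimming, 3 were higher and 1 lower. With 1 array left out 2 to 4 were higher and 1 to 2 lower, the 2 lower without control replicate 2. The share called on all arrays, 22.2%, is near that of all genes. RPN1, a subunit of the oligosaccharyltransferase, rose by 0.44 ± 0.08 and the mannosidase MAN1A1 by 0.35 ± 0.07, while the ER mannosidase MAN1B1 was at -0.42 ± 0.07. Each of these 6 genes had a limma adjusted p of at most 0.0115 and was called whichever array was left out.

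Among 24 other degradation genes, 3 were higher and 6 lower, or 37.5% against 24.5% of all genes. Only 1 was higher unless HS3ST2 replicate 2 was the array left out, and 3 were lower without HS3ST2 replicate 2 or either of control replicates 1 and 2. BCAP31, an ER membrane chaperone, was at -0.34 ± 0.06 log2 (SE), the ubiquitin-conjugating enzyme UBE2J2 at -0.35 ± 0.06 and TMUB2 at -0.28 ± 0.06. Among 21 genes of translocation and signal peptide removal, 3 were higher and 5 lower, or 38.1%. Subunits of the TRAP complex, to which SSR1 belongs, were again split, with SSR4 higher by 0.47 ± 0.06 and SSR2 at -0.38 ± 0.05, and SRP68, part of the signal recognition particle, was at -0.29 ± 0.05. Among 18 genes of COPII coats and ER exit, 2 were higher and 2 lower, or 22.2%, which is near the 24.5% of all genes. Without control replicate 2, control replicate 3, HS3ST2 replicate 1 or HS3ST2 replicate 3, 1 was lower, and 3 were lower without control replicate 1. SEC31A and SEC24C, coat subunits, rose by 0.32 ± 0.05 and 0.31 ± 0.06, while the cargo receptor SURF4 was at -0.38 ± 0.07. These genes had limma adjusted p values of at most 0.00772.

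Among 23 other genes of stress signalling, 4 were higher and 3 lower, or 30.4% against 24.5% of all genes. CHAC1 and ATF4, which belong to the branch below PERK, rose by 1.21 ± 0.07 and 0.63 ± 0.05 log2 (SE; limma adjusted p = 2.61e-05 and 0.000119). Whether PERK had a part in these rises was not tested. Not every gene of that branch was called higher. ATF3, a transcription factor induced by ATF4, was called lower at -0.24 ± 0.06 (limma adjusted p = 0.0198), and TRIB3 (-0.19), DDIT3 (-0.08) and PPP1R15A (0.07) were not called. These 4 were named after their values were seen. TMBIM6, an ER membrane protein that restrains IRE1, was at -0.29 ± 0.06 (limma adjusted p = 0.00802), and at -0.20 with no call (adjusted p = 0.0603) without its _x_at and _s_at probe sets. Only 2 were higher without control replicate 2 or HS3ST2 replicate 1. Only TMBIM6 was still called lower without control replicate 2, control replicate 3, HS3ST2 replicate 1 or HS3ST2 replicate 3.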

How the data were processed

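The authors deposited values of 54675 probe sets on 6 arrays, taken here to be log2. RMA is named in the submitters' processing notes, with no version. The median of the 6 values was 0 within 1e-05 for each probe set. The deposited values had therefore been centred per probe set, by a step not given in the sources used here. Genes were named through GEO's platform annotation, updated by gene number, and 62 control probe sets were set aside. Probe sets with 1 symbol were averaged per gene, giving 19775 genes.

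Groups of 3 were compared with limma 3.58.1 in R 4.3.3 without covariates, using lmFit and eBayes fitted over all genes and, separately, over 54613 probe sets, with Benjamini-Hochberg adjustment over each. A call is an adjusted p under 0.05. Differences are HS3ST2-labelled minus control, with moderated SE and 95% intervals. Arrays give no counts, and their number limits the precision. The fit was tested on simulated data. The genes and lists were chosen with earlier results of these data known. Every called gene, 6 genes fixed by name, and up to 3 called genes of smallest p per further list are described. Alternatives are given in the closing section. A filter on dim probe sets needs levels and was not run. Promoter sequences are from RefSeq (GRCh38.p14). Protein sequences were not used here.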

Additional observations from a re-analysis of the deposited data

How the results depend on the processing

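With 1 array left out, the number of ER genes called lower was 4 to 5 in place of 7, and the number of called ER probe sets was 15 to 24 in place of 29. Over all genes the number called fell too, to between 3777 and 4020 in place of 4845. The lower counts of probe sets came without control replicate 3 (16), HS3ST2 replicate 1 (18), HS3ST2 replicate 2 (18) and HS3ST2 replicate 3 (15). When probe sets with _x_at or _s_at endings were dropped, 2 of 30 ER genes were called lower, and SSR1 turned to 0.0043 with no call. Over all genes, 3328 of 17098 were called in that setting. At an adjusted p under 0.01, 2840 genes were called in all, and 6 ER genes were higher and 2 lower. HSP90B1, not called, was at -0.085 to 0.16 with 1 array left out and below 0 without control replicate 1. Quantile normalization and centring of the arrays kept all 16 calls and array weights added XBP1, while robust eBayes lost DNAJC10. With the probe set of largest SD all 16 calls were kept and SEC23B was added as lower. That SD was taken over all 6 arrays and includes the group difference. The choice therefore favours probe sets that differ between the groups, and the kept calls are no independent check. Same-numbered arrays had deviations from their group means that correlated at 0.119, 0.0467 and -0.0803, so the numbers were not taken to pair the arrays. With the replicate number as a block, 4302 genes were called, 8 ER genes were higher and 5 lower, and the calls of HSPA5 (adjusted p = 0.0763), ATF6 (0.0668) and DNAJC10 (0.094) by limma were lost. The ribosomal RNA signal difference between the groups was also recomputed with each array left out, an alternative chosen after seeing the data, and ranged from 0.27 to 0.63.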

Other observations

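PPIB and ERN1 were called as genes although none of their probe sets passed alone. The 2 PPIB probe sets rose by 0.30 and 0.33 log2 with limma adjusted p of 0.0888 and 0.0554 over all probe sets. Conversely, SEC23B, SEC24D and XBP1 were not called as genes although 1 probe set of each was. Control replicate 1 was the lowest array in all 3 probe sets of CALR and in both of HSP90B1, down to -0.72 and -0.82 in the _x_at probe set of each that differed most between arrays.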
